A study of Mus musculus with 18 samples.

Results

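The genes described here are the glucose transporter Slc2a1 and 9 enzymes of glycolysis or its control (Hk1, Hk2, Hk3, Pfkl, Pfkp, Pfkfb3, Aldoa, Pgk1 and Ldha). Each was taken by its symbol, and each symbol matched 1 row of a table of 21254 genes. All 10 genes passed the filter on low counts, with between 920 and 46086 counts per gene and library. Bulk RNA-seq had been run on 3 macrophage populations sorted from the lungs of C57BL/6 mice 24 h after 1 nebulized dose of LPS of Pseudomonas aeruginosa (12.5 mg in 5 ml over 15 min). The populations were monocyte-derived macrophages (moMs, CD45+CD11b+MHC-II-Ly6C+), transitional interstitial macrophages (tnsIMs, named trIM in the labels, MHC-II+Ly6C+) and mature interstitial macrophages (matIMs, MHC-II+Ly6C-). Ezr-KOm mice carried floxed alleles of Ezr, the gene of the membrane-to-actin linker ezrin, together with Cx3cr1-Cre. The WT mice carried the same Cre with intact Ezr, so that Cre was common to both genotypes, and all mice were 3 to 5 months old and of both sexes. With 3 libraries for each population in each genotype there were 6 groups and 18 libraries. All mice had received LPS, so that no comparison with untreated lungs could be made. The Cx3cr1 promoter that drives Cre is also active at a low level in some dendritic cells, eosinophils and NK cells.

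Glycolysis splits glucose into pyruvate in the cytosol and yields ATP without oxygen. Glucose enters through facilitative transporters, hexokinases trap it as glucose-6-phosphate, and phosphofructokinase makes the committed step, under the control of fructose-2,6-bisphosphate that the PFKFB enzymes make and remove. Aldolase and phosphoglycerate kinase act further down, and lactate dehydrogenase turns pyruvate into lactate so that NAD+ is renewed. Macrophages stimulated with LPS are known for a high glycolytic flux, in which the transcription factor HIF-1 takes part. Transcript levels, which were measured here, are not flux.

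The libraries held 16512783 to 48460995 counts. The deepest library was replicate 2 of Ezr-KOm tnsIMs. Levels are given as CPM (counts divided by the library total and brought to a fixed scale) scaled by the TMM method of edgeR, as mean ± SD over the 3 libraries of a group, and differences as log2 fold changes with their SE. Calls of higher or lower rest on the quasi-likelihood test of edgeR with Benjamini-Hochberg adjustment over 15811 genes and a threshold of 0.05. Ezr itself ranged from 497 to 593 CPM in WT moMs and from 160 to 282 CPM in Ezr-KOm moMs, a log2 fold change of -1.199 (adjusted p = 0.0549, not called). The log2 fold change of Ezr was -1.62 in tnsIMs (adjusted p = 0.00365) and -2.29 in matIMs (adjusted p = 7.73e-05). The ranges of the 2 genotypes did not overlap for Ezr in any population.

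Markers of other cells moved with the populations. The summed level of 9 dendritic cell markers (among them Flt3, Zbtb46 and Ccr7) was 83.3 to 125 CPM in moMs, 308 to 555 in tnsIMs and 5503 to 7598 in matIMs of WT mice. In Ezr-KOm libraries it was 93.5 to 112, 398 to 606 and 7013 to 7327 CPM. Of these 9 markers, 4 were called higher and 1 lower in WT tnsIMs than in moMs, and 5 and 1 in Ezr-KOm. Of all genes 21.6% and 14.3% were called there. In matIMs against moMs 7 of the 9 were higher and 0 lower in each genotype, where 13.4% and 12.5% of all genes were higher. The sum of 9 epithelial markers was 129 to 158 CPM in moMs, 2598 to 4246 in tnsIMs and 546 to 598 in matIMs of WT mice. The 10 markers of monocytes and macrophages summed to 7906 to 8778 CPM in moMs, 6064 to 6429 in tnsIMs and 4338 to 4975 in matIMs of WT mice. In matIMs against moMs 7 of these 10 were called lower and 0 higher in each genotype, where 11.4% and 10.7% of all genes were lower. The MHC class II genes, which the sort should leave low in moMs, summed to 4498 to 6099 CPM there against 26000 to 57470 CPM in WT tnsIMs. The sum of 8 alveolar macrophage markers (among them Marco, Chil3 and Fabp4) was 5291 to 6601 CPM in moMs, 1168 to 1615 in tnsIMs and 537 to 683 in matIMs of WT mice. Most of this sum in moMs was Chil3, the 1 gene of the 8 called lower in matIMs than in moMs, while 6 of the 8 were called higher, in both genotypes. All 8 B cell markers were called higher in matIMs than in moMs in both genotypes, with sums of 103 to 177 CPM in WT moMs and of 757 to 932 in WT matIMs. For matIMs against moMs 13.4% of all genes were higher and 11.4% lower in WT, and 12.5% and 10.7% in Ezr-KOm. All 7 endothelial markers were called higher in tnsIMs than in moMs in both genotypes, where 21.6% (WT) and 14.3% (Ezr-KOm) of all genes were called. Their sums were 96.1 to 124 CPM in WT moMs, 275 to 492 in WT tnsIMs and 74.97 to 104 in WT matIMs. The part of these other cells in the differences between populations was not tested. In bulk samples, fewer cells of a type and less RNA per cell cannot be told apart.

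Hk3 and Pfkp are 2 genes that differed in opposite directions between matIMs and the other populations. Ldha was the most abundant transcript per length of the 10 genes, apart from Pgk1, whose level was not ranked. The promoters of Hk3, Pfkp and Ldha are shown as the 250 bases before the transcription start in RefSeq (build GRCm38.p6, 5′ to 3′ on the gene's strand). Ldha has 2 such windows, and the one shown is that with more matches. Capitals mark ACGTG and GCGTG, the core letters to which HIF-1 binds, and GAGGAAG, a purine-rich run of the kind that myeloid ETS factors bind, on either strand.
Hk3, chr13:55021386-55021635, minus strand: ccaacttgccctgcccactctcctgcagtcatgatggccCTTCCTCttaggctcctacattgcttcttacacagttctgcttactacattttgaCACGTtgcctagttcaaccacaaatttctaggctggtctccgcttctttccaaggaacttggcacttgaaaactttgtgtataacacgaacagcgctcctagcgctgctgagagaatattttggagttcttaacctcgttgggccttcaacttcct
Pfkp, chr13:6648772-6649021, minus strand: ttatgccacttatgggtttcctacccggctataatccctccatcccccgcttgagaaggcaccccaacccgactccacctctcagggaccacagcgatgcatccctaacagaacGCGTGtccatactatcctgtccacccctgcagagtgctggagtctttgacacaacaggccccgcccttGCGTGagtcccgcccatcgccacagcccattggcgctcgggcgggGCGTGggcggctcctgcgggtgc
Ldha, chr7:46845554-46845803, plus strand: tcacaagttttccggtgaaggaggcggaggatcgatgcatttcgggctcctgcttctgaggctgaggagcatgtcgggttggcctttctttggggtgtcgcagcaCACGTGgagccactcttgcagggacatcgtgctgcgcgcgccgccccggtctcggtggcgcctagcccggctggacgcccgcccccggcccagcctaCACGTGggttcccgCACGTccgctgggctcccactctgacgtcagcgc

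The Hk3 window held 1 match to ACGTG and 1 to GAGGAAG, the Pfkp window 3 matches to GCGTG, and the Ldha window 5 matches to ACGTG, where the palindrome CACGTG counts on both strands. The other Ldha window had 0 matches to ACGTG and 1 to GCGTG. The GC content was 47.2% in Hk3, 62.8% in Pfkp and 67.2% in Ldha. All 10 genes had at least 1 promoter in the RefSeq table, 15 in all, of which those of one gene can overlap. ACGTG stood in 9 of these 15 windows against 16.6% of all 32851 promoter windows of the same length, and GCGTG in 6 of 15 against 28.2%. Either of them stood in 13 of 15 windows, against 38.6% of all windows, and each of the 10 genes had at least 1 window with such a match. The 32851 windows were not matched to these 15 for GC content, and overlapping windows of one gene can share a match. GAGGAAG was in 3 of 15 windows against 10.6% of all and TGANTCA, the core of AP-1 sites, in 1 of 15 against 6.75%. A match of letters is not a site.

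Processed copies of some of these genes stand elsewhere in the genome, and a read that fits a gene and a copy equally well has more than 1 place in an alignment. Transcripts of other genes with at least 90% identity over at least 80% of the copy were found for 3 of the 10 genes, Pgk1 with 4 copies, Ldha with 13 and Aldoa with 3. The stretches below, 90 bases of an exon on GRCm39, show why a read of Pgk1 can have several places: Pgk1 and Ldha stand beside a processed pseudogene of each, with mismatches in capitals.
Pgk1, chrX:105243807-105243896, plus strand: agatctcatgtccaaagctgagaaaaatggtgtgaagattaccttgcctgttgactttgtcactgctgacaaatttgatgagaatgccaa
Pgk1-rs7, chr12:10949352-10949441, minus strand: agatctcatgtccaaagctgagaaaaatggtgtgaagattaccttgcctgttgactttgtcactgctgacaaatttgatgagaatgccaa
Ldha, chr7:46500350-46500439, plus strand: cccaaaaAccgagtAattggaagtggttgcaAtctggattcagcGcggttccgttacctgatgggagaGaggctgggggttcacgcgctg
Gm5452, chr13:83980919-83981008, plus strand: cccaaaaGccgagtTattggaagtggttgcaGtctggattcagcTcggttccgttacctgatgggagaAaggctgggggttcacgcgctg

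Pgk1 and Pgk1-rs7 had 0 mismatches in this stretch, and Ldha and Gm5452 had 5. Of all windows of 100 bases in the Pgk1 transcript, 67% occurred letter for letter in a copy, against 1.48% for Ldha and 0% for Aldoa. The 4 Pgk1 copies (Gm5537, Pgk1-rs7, Gm7466 and Pgk1-ps1) had between 0 and 10 counts each per library, together at most 0.657% of the count of Pgk1. The 7 Ldha copies that the table holds took 0.166% to 0.279% of the count of Ldha. Reads with several places can be missing from the count of Pgk1, so that its level is not ranked among the other genes below.

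Levels between genes were compared per kilobase of exon (union of the exons of a gene). In WT moMs Ldha, the lactate dehydrogenase subunit that favours lactate, stood first at 202.7 ± 17.96 CPM per kb, and Aldoa, the main aldolase outside liver and brain, second at 131 ± 4.85 CPM per kb. Slc2a1 at 37.8 ± 4.29, Hk3 at 32.7 ± 7.81 and Pfkp at 26.4 ± 2.62 CPM per kb followed, and the range of Hk3 overlapped those of both others. Pfkl at 12.97 ± 0.972, Pfkfb3 at 11.8 ± 3.22, Hk2 at 11.6 ± 1.28 and Hk1 at 10.2 ± 1.60 CPM per kb were lowest and overlapped one another, apart from Pfkl and Hk1. In WT matIMs the order after Ldha (207 ± 26.6) and Aldoa (135 ± 17.7) was Pfkp at 49.3 ± 2.45, Slc2a1 at 32.4 ± 2.45, Pfkfb3 at 18.9 ± 4.17 and Hk3 at 11.4 ± 3.44 CPM per kb, and of these neighbours only Pfkfb3 and Hk3 overlapped. The exon unions come from a later annotation than the counts. With the longest transcript as the length, Pfkp (47.2 CPM per kb) stood above Slc2a1 (39.9) and Hk3 (38.7) in WT moMs already. The order of the lowest genes changed as well, to Hk1 (20.3), Pfkl (19.85), Pfkfb3 (16.8) and Hk2 (12.3).

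**Figure D1:**
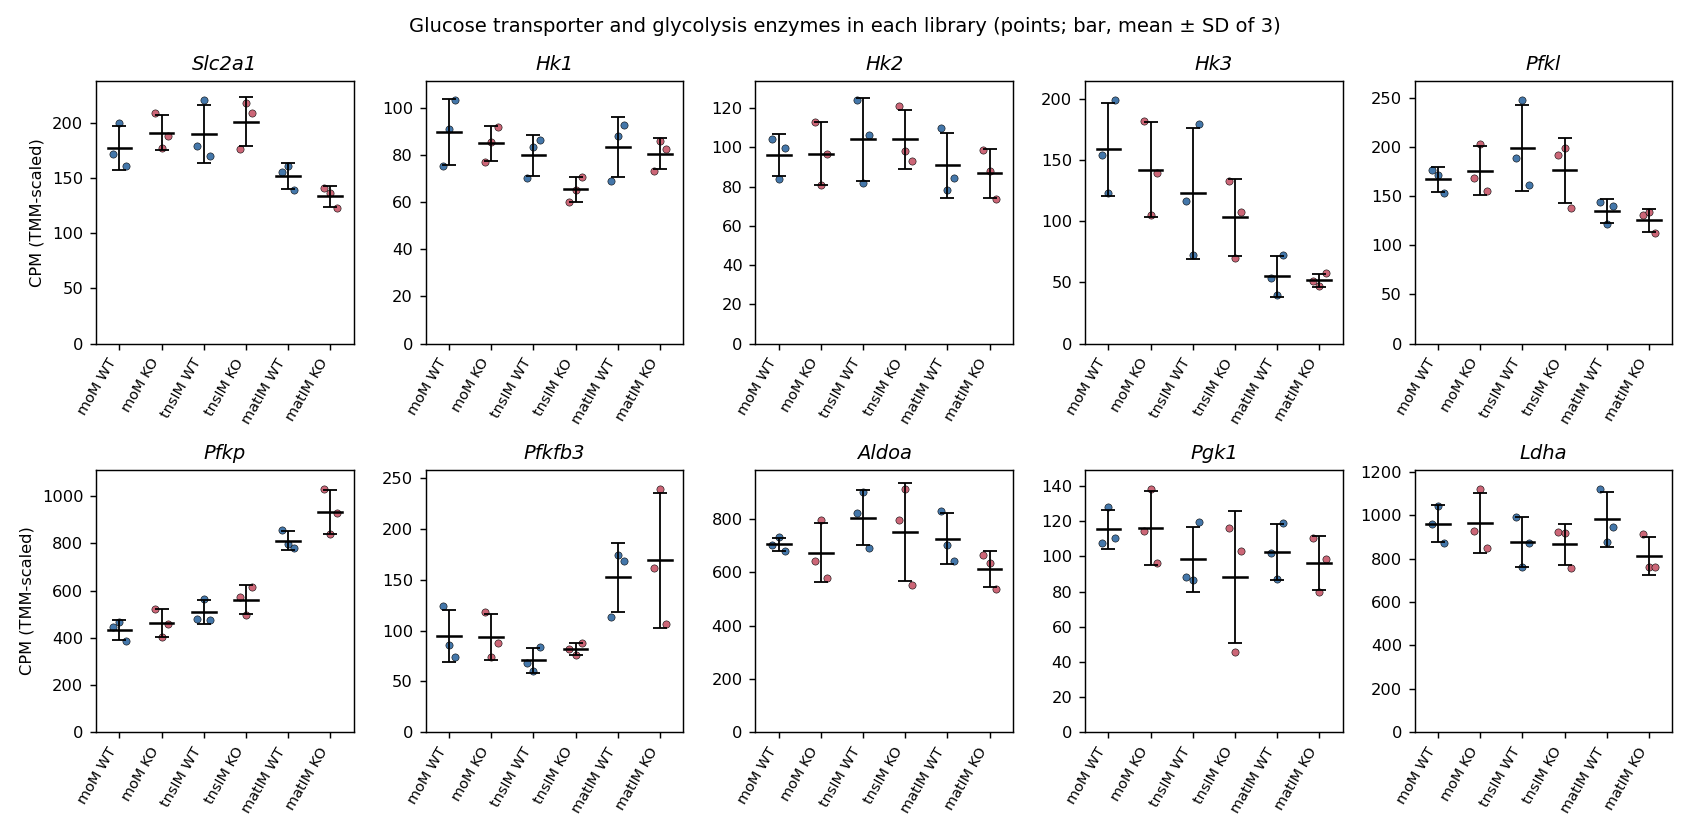
CPM of each of the 10 genes (y axis, linear, from 0) in each of the 18 libraries (points, WT blue and Ezr-KOm red) by group on the x axis, with the mean ± SD of the 3 libraries. The 6 matIM points of Pfkp, at 779 CPM and above, lie over all moM and tnsIM points, and those of Hk3, at 72.5 CPM or less, lie under the moM and tnsIM points of their own genotype.

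Loss of ezrin in these cells was compared first. None of the 10 genes was called between Ezr-KOm and WT in moMs, tnsIMs or matIMs, where 0.171%, 0.164% and 0.152% of all genes tested were called. By the rule of the study, which takes p values before adjustment under 0.05 and asks for a log2 fold change beyond 0.75 in size, the count was again 0 of 10 in each population, against 2.51%, 1.83% and 2.40% of all genes. In edgeR 0 of 10 had an unadjusted p under 0.05 in any population, where 3.74%, 3.24% and 3.84% of all genes had one. DESeq2 called 0 of 10 in each, with 1 unadjusted p under 0.05, in tnsIMs. The percentages are those of edgeR, and the numbers of all genes that DESeq2 called are given in the last section. The ranges of the 2 genotypes overlapped for every one of the 10 genes in every population, against 8.52%, 5.81% and 10.1% of all genes whose groups did not overlap. The 10 genes had a median log2 fold change of 0.01 in moMs, of -0.06 in tnsIMs and of -0.09 in matIMs, beside 0.00 for all genes in each.

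The differences that these libraries could leave unseen are given by the 95% confidence intervals. Across the 10 genes the log2 fold changes ran from -0.16 to 0.11 in moMs, from -0.29 to 0.21 in tnsIMs and from -0.27 to 0.20 in matIMs. The intervals lay within -0.79 to 0.54, -0.88 to 0.75 and -0.73 to 0.69. The narrowest were those of Slc2a1, with log2 fold changes of 0.11, 0.08 and -0.19 in moMs, tnsIMs and matIMs and an SE of 0.14 in each. The widest were those of Hk3, with -0.16, -0.25 and -0.09 and an SE of 0.30 in each. The genes nearest to the threshold were Hk1 in tnsIMs (log2 fold change -0.29, 95% confidence interval -0.60 to 0.02, adjusted p = 1) and Ldha in matIMs (-0.27, -0.59 to 0.05, adjusted p = 0.99988). The change of the Ezr-KOm effect between 2 populations (interaction) was called for 0 of 10 genes in each of 3 comparisons, where 0% of all genes were called. At an unadjusted p under 0.05 the count was also 0 of 10, against 1.47%, 1.70% and 1.16% of all genes.

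**Figure D2:**
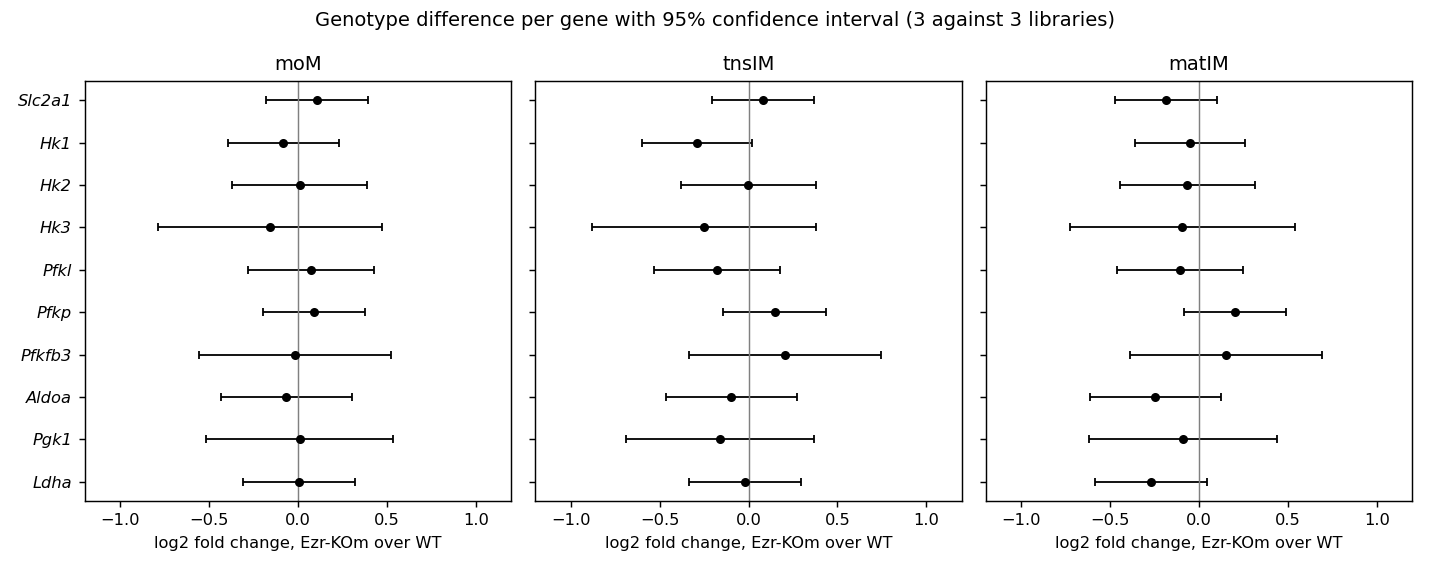
Log2 fold change of Ezr-KOm over WT (x axis) for each of the 10 genes (y axis) in moMs, tnsIMs and matIMs, as points with 95% confidence intervals. All 30 intervals include 0.

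One other gene of the same pathway, the enolase gene Eno1b, was called between genotypes. The table holds Eno1, the common enolase, and Eno1b, a gene nearly identical to it, so that 80.9% of the 100-base windows of Eno1b occurred in another gene's transcript. Of all genes tested, 0.171%, 0.164% and 0.152% were called between genotypes in moMs, tnsIMs and matIMs. Of 28 other glycolysis genes tested, only Eno1b was called, and it was higher in Ezr-KOm in all 3 populations. Its level was 12.0 ± 2.83 CPM in WT and 175.9 ± 57.9 CPM in Ezr-KOm moMs (log2 fold change 3.88, adjusted p = 1.89e-08). It was 8.59 ± 1.26 against 126 ± 22.2 CPM in tnsIMs and 8.67 ± 1.94 against 122.6 ± 15.5 CPM in matIMs. Eno1 itself, whose level in moMs was 1895 ± 174 CPM without and 1458 ± 134 CPM with the deletion of Ezr, was not called in any population. The Eno1 values of the genotypes did not overlap in moMs and in matIMs, where 8.52% and 10.1% of all genes did not overlap. In tnsIMs they overlapped. Of the 100-base windows of Eno1, 51.9% occurred in another gene's transcript, so that reads can be missing from its count too. The sum of Eno1 and Eno1b was 1907 ± 173 against 1634 ± 192 CPM in moMs, 1574 ± 203 against 1282 ± 416 CPM in tnsIMs and 1417 ± 120 against 1179 ± 148 CPM in matIMs. How reads were shared between these 2 genes was not tested.

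Populations were compared next, within each genotype. In WT 2 of the 10 genes were called between matIMs and moMs, 4 between matIMs and tnsIMs and 0 between tnsIMs and moMs, where 24.8%, 18.5% and 21.6% of all genes were called. In Ezr-KOm the counts in the same order were 5, 4 and 0, against 23.3%, 18.2% and 14.3% of all genes. The 10 genes did not move one way. Pfkp and Pfkfb3 were higher in matIMs and Hk3, Pfkl and Slc2a1 were lower, each in at least 1 comparison, while Hk1, Hk2, Aldoa, Pgk1 and Ldha were called in none. In an alternative fit with the replicate number as a block within genotype, Hk1 was called in 2 comparisons of Ezr-KOm populations. The median log2 fold change of the 10 genes for matIMs against moMs was -0.10 in WT and -0.20 in Ezr-KOm, beside 0.01 for all genes in both. In the comparison of tnsIMs and moMs edgeR gave 0 of 10 an unadjusted p under 0.05 in WT and 1, Hk1, in Ezr-KOm, against 34.0% and 26.8% of all genes, and DESeq2 also called 0 in both. With the replicate block 1 gene was called there in WT and 2 in Ezr-KOm. The percentages just given are those of edgeR without a block. In Ezr-KOm the block also called more of all genes in this comparison, as given in the last section. The share of all genes that it called in WT is not given here. The values of the compared groups did not overlap for 3, 5 and 1 of the 10 genes in WT (matIMs against moMs, matIMs against tnsIMs and tnsIMs against moMs), where 41.5%, 31.5% and 36.0% of all genes did not overlap. In Ezr-KOm this held for 4, 6 and 1 genes, against 39.9%, 31.2% and 28.7% of all genes. Comparisons of one genotype share libraries, so that their counts are not independent.

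**Figure D3:**
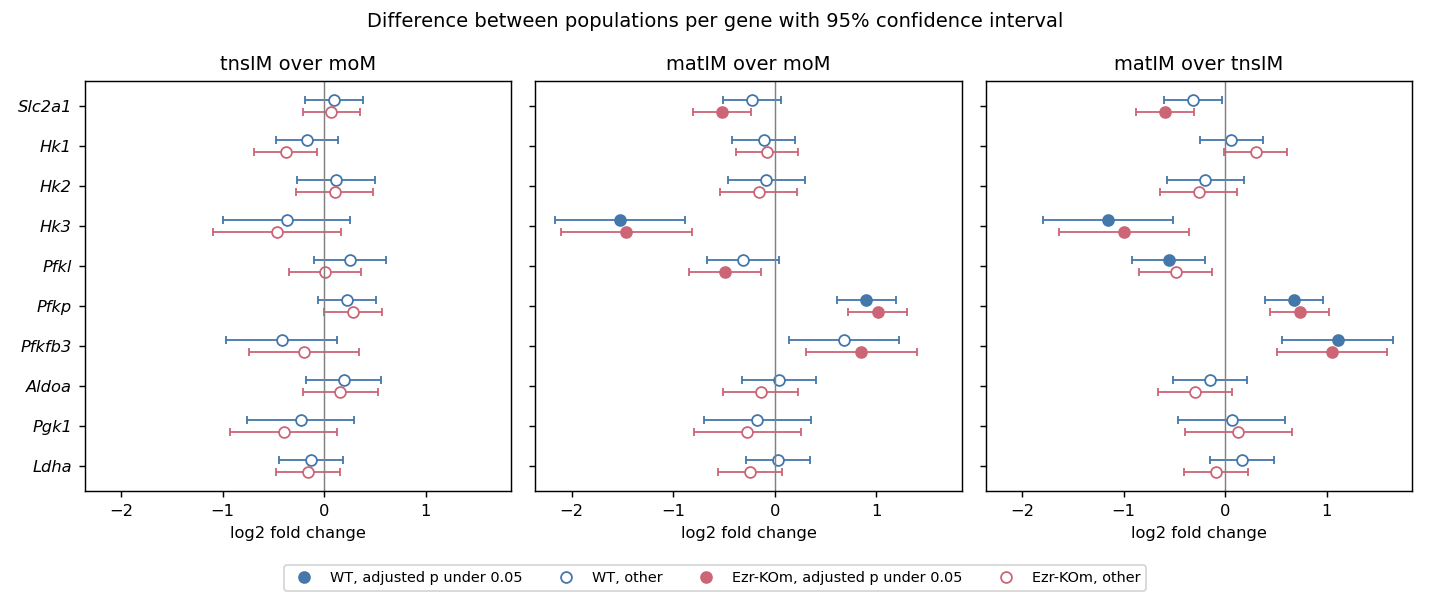
Log2 fold changes between populations (x axis) for the 10 genes (y axis) in WT (blue) and Ezr-KOm (red), as points with 95% confidence intervals, filled where the adjusted p was under 0.05. Pfkp is filled on the right of 0 and Hk3 on the left of 0 in both genotypes for matIMs against moMs and against tnsIMs, and 0 points are filled for tnsIMs against moMs.

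Slc2a1 (chr4:118965908-118995180, plus strand, GRCm39 as all positions of the 10 genes) encodes GLUT1, a transporter for basal glucose uptake that rises in activated macrophages. It was at 172, 199.7 and 160.5 CPM in WT moMs, at 179, 220.2 and 170.3 CPM in WT tnsIMs and at 156, 161 and 139 CPM in WT matIMs. In Ezr-KOm mice it was at 208, 177 and 188 CPM in moMs, at 176, 218 and 209 CPM in tnsIMs and at 141, 136 and 123 CPM in matIMs. The matIM values lay under all tnsIM values in both genotypes and, in Ezr-KOm, under all moM values. Slc2a1 was lower in Ezr-KOm matIMs than in moMs (log2 fold change -0.52 ± 0.14, adjusted p = 0.00860) and than in tnsIMs (-0.59 ± 0.14, adjusted p = 0.00416). In WT it was not called (-0.22, adjusted p = 0.263 against moMs, and -0.32, adjusted p = 0.120 against tnsIMs), and the difference between the genotypes in this respect was not called either (-0.30 ± 0.19 and -0.27 ± 0.19). Without replicate 1 of Ezr-KOm moMs the first call was lost (adjusted p = 0.0532), and without replicate 3 of WT tnsIMs Slc2a1 was called lower in WT matIMs than in tnsIMs (adjusted p = 0.0478). The genes whose 6 group means were nearest to those of Slc2a1 were Slc39a14, Gm20470 and Elk3, at root mean square distances of 0.0301, 0.0398 and 0.0448 on the log2 scale over 6 groups.

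Per kb of the 4 facilitative transporter genes measured (a family put together after values were seen), Slc2a1 made up 54.0% ± 3.81 in WT moMs, 61.4% ± 6.71 in WT tnsIMs and 50.4% ± 3.10 in WT matIMs. Slc2a6, a transporter of lysosomal membranes, made up most of the rest (42.8% ± 3.50, 33.8% ± 6.50 and 43.3% ± 3.06), and the shares of both genes overlapped between moMs and matIMs. Slc2a3, the high-affinity GLUT3, went from 1.14% ± 0.209 to 4.23% ± 0.779 without overlap.

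Hexokinases take glucose into the cell's metabolism. Hk1 (chr10:62104634-62215687, minus strand) is the housekeeping form bound to mitochondria. Hk2 (chr6:82702006-82751435, minus strand) is the inducible form, and Hk3 (chr13:55153798-55169198, minus strand) a form found in myeloid cells. Hk3 was at 154, 123 and 198 CPM in WT moMs, at 116, 72.7 and 179 CPM in WT tnsIMs and at 53.4, 39.3 and 72.5 CPM in WT matIMs. In Ezr-KOm mice it was at 182, 105 and 139 CPM in moMs, at 132, 69.9 and 107 CPM in tnsIMs and at 50.7, 46.7 and 57.4 CPM in matIMs. The matIM values lay under all moM and tnsIM values in both genotypes. Hk3 was lower in matIMs than in moMs, with a log2 fold change of -1.52 ± 0.31 in WT (adjusted p = 0.00105) and of -1.46 ± 0.31 in Ezr-KOm (adjusted p = 0.00156). Against tnsIMs the log2 fold change was -1.15 ± 0.30 in WT (adjusted p = 0.0108) and -0.998 ± 0.30 in Ezr-KOm (adjusted p = 0.0261).

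The Hk3 calls against moMs were kept in all 23 alternatives in each genotype, but those against tnsIMs were lost when certain single libraries were left out. In WT the log2 fold change was -0.83 without replicate 3 of tnsIMs, the highest of that group (adjusted p = 0.0675), and -0.986 without replicate 2 of matIMs (0.0589). In Ezr-KOm it was -0.78 without replicate 1 of tnsIMs (0.115), -1.035 without replicate 1 of matIMs (0.0583) and -0.93 without replicate 2 of matIMs (0.0951). Between tnsIMs and moMs Hk3 was not called, with -0.37 in WT and -0.46 in Ezr-KOm. With the replicate block it was called lower there in both genotypes (-0.43, adjusted p = 0.0312, and -0.47, adjusted p = 0.0266), and the tnsIM value was under the moM value of the same number in 6 of 6 pairs. The gene nearest to Hk3 in its 6 group means was Csf3r, the receptor of granulocyte colony-stimulating factor, at a distance of 0.0329, followed by Slc16a10 and Tcn2 at 0.0619 and 0.0666, where Hk3 itself spanned 1.60 on the log2 scale. Csf3r is 1 of 10 neutrophil markers listed here, whose summed level was 446 to 483 CPM in moMs, 409 to 611 in tnsIMs and 247 to 318 in matIMs of WT mice. In Ezr-KOm the neutrophil sum was 386 to 492, 339 to 608 and 195 to 411 CPM. Elane, a protease of neutrophil granules, was at 0 counts in all 6 matIM libraries. Of the 10 neutrophil markers 4 were called higher and 2 lower in matIMs than in moMs in each genotype, with Csf3r and Elane as the lower ones. Of all genes 13.4% were higher and 11.4% lower in WT, and 12.5% and 10.7% in Ezr-KOm. The part of neutrophils in the level of Hk3 was not tested.

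Hk1 and Hk2 differed less between populations than Hk3. Hk1 was at 75.1, 91.1 and 103.1 CPM in WT moMs, 70.0, 83.2 and 86.3 CPM in WT tnsIMs and 68.8, 88.2 and 92.7 CPM in WT matIMs. The lowest group mean of Hk1 was that of Ezr-KOm tnsIMs, at 60.2, 65.1 and 70.8 CPM, which lay under the moM values of the same genotype (77.0, 85.5 and 92.0) without a call (log2 fold change -0.38, adjusted p = 0.102). With the replicate block Hk1 was called lower in these tnsIMs than in moMs (-0.38, adjusted p = 0.0116) and higher in Ezr-KOm matIMs than in tnsIMs (0.3008, adjusted p = 0.0345). Hk2 ranged from 78.2 to 124 CPM over the 9 WT libraries and from 73.6 to 121 CPM over the 9 Ezr-KOm libraries, with overlap between every pair of groups compared. Its log2 fold changes between populations lay between -0.26 and 0.12. The genes nearest to Hk2 were Wsb2, Ippk and Ifng, at 0.0276, 0.0280 and 0.0303, but Hk2 spanned only 0.263 over the 6 group means.

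As a share of the 3 hexokinase genes per kb, Hk3 made up 59.5% ± 3.98 in WT moMs, 52.2% ± 9.21 in WT tnsIMs and 35.2% ± 6.30 in WT matIMs. In Ezr-KOm the Hk3 share was 57.2% ± 5.01, 50.75% ± 6.99 and 35.2% ± 3.74. The lowest moM share, 52.65%, was above the highest matIM share, 41.88%. The shares of Hk1 and Hk2 were 19.0% and 21.5% in WT moMs and 30.1% and 34.7% in WT matIMs, at levels that were not called. With the longest transcript as the length, the Hk3 share was 53.8% ± 4.36 in WT moMs and 30.2% ± 5.77 in WT matIMs, where Hk1 then had the largest share (43.1% ± 6.998). Hkdc1, a further hexokinase gene of epithelia, was at 0.0380 CPM in moMs, 1.035 in tnsIMs and 0.156 in matIMs of WT mice.

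**Figure D4:**
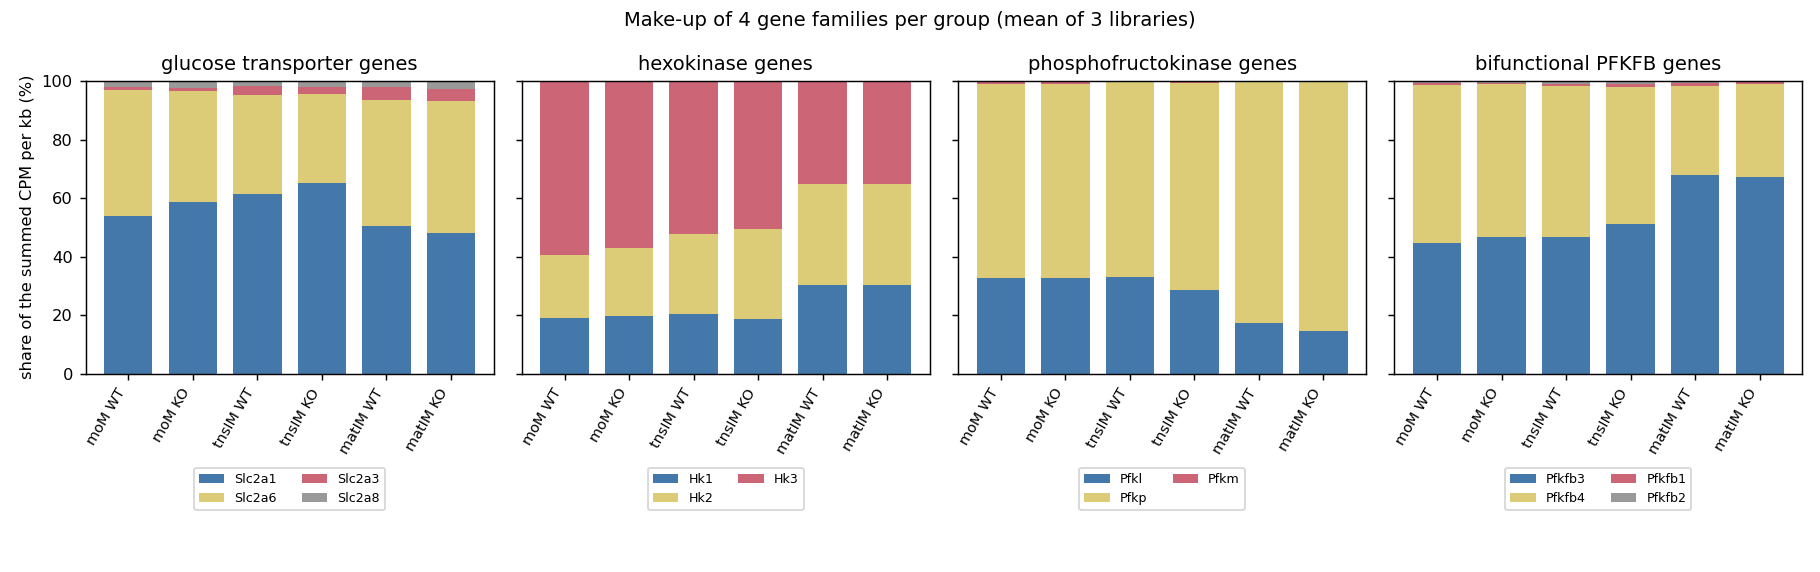
Share of each gene in the summed CPM per kb of its family (y axis, percent, mean of 3 libraries) by group (x axis), for the glucose transporter, hexokinase, phosphofructokinase and bifunctional PFKFB genes. The Hk3 part goes from 59.5% in WT moMs to 35.2% in WT matIMs, and the Pfkp part goes from 66.3% to 82.2%.

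Phosphofructokinase is the main point of control of glycolysis, and its liver type Pfkl and platelet type Pfkp differed in opposite directions between matIMs and the other populations, although Pfkl was in no comparison called in both genotypes. Pfkp (chr13:6629804-6698813, minus strand) was at 446, 469 and 386 CPM in WT moMs, at 479.7, 566 and 477 CPM in WT tnsIMs and at 856, 799 and 779 CPM in WT matIMs. In Ezr-KOm it was at 524, 405 and 458 CPM in moMs, at 574, 496 and 615 CPM in tnsIMs and at 1029.9, 841 and 930.4 CPM in matIMs. No moM or tnsIM library reached the lowest matIM library, in either genotype. The log2 fold change of Pfkp from moMs to matIMs was 0.90 ± 0.14 in WT (adjusted p = 7.67e-05) and 1.02 ± 0.14 in Ezr-KOm (adjusted p = 2.27e-05). Against tnsIMs it was 0.68 ± 0.14 in WT (adjusted p = 0.00149) and 0.73 ± 0.14 in Ezr-KOm (adjusted p = 0.000768). These 4 calls of Pfkp were kept in all alternatives. From moMs to tnsIMs Pfkp was not called, with 0.23 in WT, where the groups did not overlap, and 0.28 in Ezr-KOm.

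Pfkl (chr10:77822781-77845917, minus strand) was at 177, 172 and 153 CPM in WT moMs, at 188, 247 and 161 CPM in WT tnsIMs and at 144, 121 and 139.8 CPM in WT matIMs. In Ezr-KOm the values of Pfkl were 168, 203 and 155 CPM in moMs, 191, 199 and 138 CPM in tnsIMs and 131, 133 and 112 CPM in matIMs. The matIM values were under those of both other populations in each genotype. Pfkl was called lower in WT matIMs than in tnsIMs (-0.56 ± 0.17, adjusted p = 0.0260) and in Ezr-KOm matIMs than in moMs (-0.49 ± 0.17, adjusted p = 0.0449). Its log2 fold change was -0.31 in WT matIMs against moMs (adjusted p = 0.209) and -0.49 in Ezr-KOm matIMs against tnsIMs (adjusted p = 0.0519). The last of these was called in 7 of 23 alternatives, among them DESeq2 (adjusted p = 0.0342), the replicate block (0.0150) and leaving out replicate 3 of Ezr-KOm tnsIMs (-0.69, adjusted p = 0.00900). The WT call was lost without replicate 2 of tnsIMs (adjusted p = 0.145) and without replicate 2 or 3 of matIMs (0.110 and 0.0515).

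The Ezr-KOm call of Pfkl against moMs stood close to the threshold and was lost in 15 of 23 alternatives, with adjusted p values up to 0.178. Of these, 12 left out 1 library, namely any of the 3 WT moM, WT matIM or Ezr-KOm matIM libraries, replicate 1 or 2 of Ezr-KOm moMs, or replicate 1 of WT tnsIMs. As a share of Pfkl, Pfkp and the muscle type Pfkm per kb, Pfkl went from 32.7% ± 0.986 in WT moMs to 17.45% ± 1.22 in WT matIMs, and from 32.5% ± 5.41 to 14.7% ± 1.86 in Ezr-KOm. The ranges of these shares did not overlap. Pfkm made up at most 1.095% in any library.

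Pfkfb3 (chr2:11476244-11558888, minus strand) makes the activator of phosphofructokinase and responds to hypoxia and inflammatory signals. It was at 124, 85.9 and 74.5 CPM in WT moMs, at 67.9, 60.4 and 84.0 CPM in WT tnsIMs and at 114, 175 and 169 CPM in WT matIMs. In Ezr-KOm it was at 119, 74.1 and 88.0 CPM in moMs, at 81.6, 76.0 and 87.5 CPM in tnsIMs and at 162, 239 and 107 CPM in matIMs. The matIM and tnsIM values did not overlap in either genotype, and the matIM and moM values overlapped in both. Pfkfb3 was higher in matIMs than in tnsIMs by 1.11 ± 0.26 in WT (adjusted p = 0.00488) and by 1.05 ± 0.26 in Ezr-KOm (adjusted p = 0.00694) on the log2 scale. Against moMs it was higher by 0.85 ± 0.26 in Ezr-KOm (adjusted p = 0.0213) and not called in WT (0.69 ± 0.26, adjusted p = 0.0605).

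The Pfkfb3 calls in Ezr-KOm were lost without replicate 2 of matIMs, the highest of all libraries. The log2 fold change was then 0.72 against tnsIMs (adjusted p = 0.0657) and 0.52 against moMs (adjusted p = 0.174). The call against moMs was also lost without replicate 2 or 3 of Ezr-KOm moMs (0.103 and 0.0756). In WT the difference from moMs was called in 7 of 23 alternatives, among them DESeq2 (adjusted p = 0.043), leaving out replicate 1 of moMs (0.0280) and leaving out replicate 1 of matIMs (0.0366). Of the 4 PFKFB genes per kb, Pfkfb3 made up 44.7% ± 12.9 in WT moMs, 46.7% ± 2.81 in WT tnsIMs and 68.0% ± 1.82 in WT matIMs, without overlap between matIMs and the others. In Ezr-KOm the Pfkfb3 share was 41.06% to 57.22% in moMs, 45.6% to 55.43% in tnsIMs and 53.59% to 74.82% in matIMs, and there the matIM range overlapped both others. Pfkfb4 was nearly all of the rest, and its own level went from 97.9 ± 24.9 CPM in WT moMs to 58.2 ± 15.3 CPM in WT matIMs (log2 fold change -0.75 ± 0.25, adjusted p = 0.0336).

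Aldoa, Pgk1 and Ldha, which act after phosphofructokinase, were called in no comparison of populations in the fit to all libraries. Aldoa (chr7:126394406-126399923, minus strand) ranged from 644 to 899 CPM over the 9 WT libraries, with group means of 704 ± 26.1 in moMs, 805 ± 105 in tnsIMs and 726 ± 95.3 CPM in matIMs. Its log2 fold changes lay between -0.30 and 0.19, but without replicate 3 of Ezr-KOm tnsIMs, the lowest of that group at 551 CPM, Aldoa was called lower in Ezr-KOm matIMs than in tnsIMs (-0.53, adjusted p = 0.0392). Pgk1 (chrX:105230706-105247305, plus strand), the first ATP-yielding enzyme of the pathway, was at 108, 128 and 111 CPM in WT moMs, at 88.4, 86.9 and 119.7 CPM in WT tnsIMs and at 102, 87.1 and 119 CPM in WT matIMs. In Ezr-KOm tnsIMs Pgk1 was at 116, 45.6 and 103 CPM, and replicate 2, the deepest library, stood under all other libraries.

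Ldha (chr7:46490899-46505051, plus strand) was at 962, 1044 and 874 CPM in WT moMs, at 994, 764 and 871 CPM in WT tnsIMs and at 1120.4, 875 and 947 CPM in WT matIMs. In Ezr-KOm it was at 926, 1119 and 851 CPM in moMs, at 921, 919 and 756 CPM in tnsIMs and at 916, 761 and 763 CPM in matIMs. All groups overlapped. The log2 fold changes of Ldha between populations lay between -0.25 and 0.16, with 95% confidence intervals within -0.56 and 0.48. Its nearest genes in the 6 group means were Prelid1, Ddx17 and Zfp414, at 0.0249, 0.0296 and 0.0297, where Ldha spanned 0.268.

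Ldhb, the subunit that favours pyruvate, behaved otherwise. It was at 44.2 CPM in moMs, 19.6 in tnsIMs and 5.87 in matIMs of WT mice, a log2 fold change of -1.18 ± 0.26 from moMs to tnsIMs (adjusted p = 0.00315) and of -2.91 ± 0.28 from moMs to matIMs (adjusted p = 3.42e-07). In Ezr-KOm these were -1.199 ± 0.26 (adjusted p = 0.00377) and -3.18 ± 0.28 (adjusted p = 1.30e-07). Of both subunits per kb, Ldha made up 95.3% ± 0.613 in WT moMs, 97.6% ± 0.735 in WT tnsIMs and 99.4% ± 0.237 in WT matIMs, and the Ldha ranges of moMs and matIMs did not overlap. The level of Ldha itself was not called.

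The other genes of the pathway were read from a list of 35, of which 30 were in the table and 28 were tested. Between matIMs and moMs 4 were higher and 7 lower in each genotype, where of all genes 13.4% were higher and 11.4% lower in WT and 12.5% and 10.7% in Ezr-KOm. Between matIMs and tnsIMs 4 were higher and 4 lower in WT, and 3 and 5 in Ezr-KOm, where 18.5% and 18.2% of all genes were called. Between tnsIMs and moMs 3 were higher and 3 lower in WT, and 3 and 2 in Ezr-KOm, where 21.6% and 14.3% of all genes were called. The median log2 fold change for matIMs against moMs was -0.15 in WT and -0.16 in Ezr-KOm, beside 0.01 for all genes.

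Higher in matIMs than in moMs were Eno2, Aldoc, Eno3 and Slc2a3. Eno2, the neuronal enolase, was at 0.933 CPM in WT moMs and 10.9 CPM in WT matIMs (log2 fold change 3.54 ± 0.50, adjusted p = 3.19e-05), and Aldoc, the brain aldolase, at 4.52 and 13.6 CPM (1.59 ± 0.23, adjusted p = 4.28e-05). Slc2a3, the high-affinity transporter GLUT3, was at 5.96 CPM in moMs, 14.7 in tnsIMs and 20.3 in matIMs of WT mice, higher in tnsIMs by 1.31 ± 0.31 (adjusted p = 0.00488) and in matIMs by 1.77 ± 0.31 (adjusted p = 0.000280). Per kb Slc2a3 stayed under Slc2a1, at 2.71 ± 0.423 against 32.4 ± 2.45 CPM per kb in WT matIMs. Lower in matIMs were the lactate and pyruvate carriers Slc16a7 (-1.22 ± 0.17 in WT, adjusted p = 3.57e-05) and Slc16a3 (-0.84 ± 0.20 in WT, adjusted p = 0.00340, and -1.12 ± 0.20 in Ezr-KOm, adjusted p = 0.000316). Pkm, pyruvate kinase, went from 2052 to 1410 CPM in WT (-0.54 ± 0.12, adjusted p = 0.00283) and from 2033 to 1262 CPM in Ezr-KOm (-0.69 ± 0.12, adjusted p = 0.000389).

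**Figure D5:**
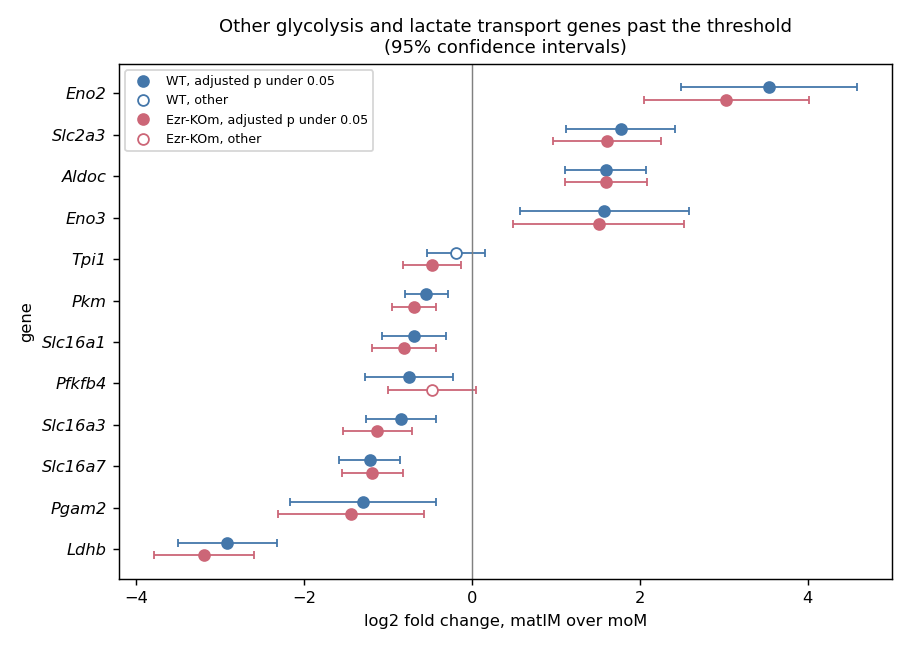
Log2 fold change of matIMs over moMs (x axis) for the 12 other glycolysis and lactate transport genes past the threshold in at least 1 genotype (y axis), in WT (blue) and Ezr-KOm (red), with 95% confidence intervals. Eno2, Slc2a3, Aldoc and Eno3 lie right of 0 and the rest lie left of 0, with Ldhb farthest.

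In tnsIMs Fbp2, a muscle fructose bisphosphatase, was at 0.774 CPM in WT, and it was at 0 counts in all 6 moM libraries, so that no fold is given. The epithelial markers given above were highest in the same population as well, and their part in the level of Fbp2 and Hkdc1 was not tested.

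The pentose phosphate pathway branches off at glucose-6-phosphate and yields NADPH. Of its 9 genes, 0 were called between genotypes in moMs, tnsIMs or matIMs, where 0.171%, 0.164% and 0.152% of all genes were called. In matIMs 4 were lower than in moMs in each genotype, where 11.4% and 10.7% of all genes were lower, and 0 were higher. G6pdx, which makes the first step, went from 354 to 174 CPM in WT (-1.03 ± 0.15, adjusted p = 5.12e-05) and from 305 to 157 CPM in Ezr-KOm (-0.96 ± 0.15, adjusted p = 0.000101). H6pd, its counterpart in the endoplasmic reticulum, was lower by -1.31 ± 0.28 in WT (adjusted p = 0.00193), Pgd by -0.67 ± 0.18 (adjusted p = 0.00949) and Taldo1 by -0.48 ± 0.14 (adjusted p = 0.0142). Between tnsIMs and moMs 2 of 9 were lower in WT, G6pdx and Taldo1, and 3 in Ezr-KOm. In this comparison 21.6% and 14.3% of all genes were called, in either direction.

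Of 15 genes for the entry of pyruvate into mitochondria, 0 were called between genotypes in any population. Of all genes 0.171%, 0.164% and 0.152% were called between genotypes in moMs, tnsIMs and matIMs. In WT matIMs 1 of the 15 was higher and 1 lower than in moMs, and in Ezr-KOm 1 was higher and 2 were lower. Between matIMs and moMs 24.8% and 23.3% of all genes were called. Pcx, pyruvate carboxylase, was higher (1.00 against 3.35 CPM, log2 fold change 1.72 ± 0.40, adjusted p = 0.00325) and Pdk2, an inhibitory kinase of pyruvate dehydrogenase, lower (12.9 against 5.90 CPM, -1.12 ± 0.21, adjusted p = 0.000628). Pcx was higher still in WT tnsIMs, at 9.02 CPM. The subunits of pyruvate dehydrogenase and the carriers Mpc1 and Mpc2 were not called in WT, and Pdha1 was lower in Ezr-KOm matIMs than in moMs (-0.39 ± 0.13, adjusted p = 0.0339).

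HIF-1 drives many glycolytic genes, and its subunits, regulators and classical targets outside the pathway made up a list of 25, of which 24 were tested. None was called between genotypes in moMs, tnsIMs or matIMs, where 0.171%, 0.164% and 0.152% of all genes were called. In WT 2 were higher and 8 lower in matIMs than in moMs, and in Ezr-KOm 3 and 8, where of all genes 13.4% were higher and 11.4% lower in WT and 12.5% and 10.7% in Ezr-KOm. The subunit genes were among the lower ones, Hif1a with 337 and 240 CPM in WT (-0.49 ± 0.16, adjusted p = 0.0282) and Arnt with 92.5 and 59.5 CPM (-0.64 ± 0.14, adjusted p = 0.00178). Of the targets, Bnip3l was lower (-1.01 ± 0.20, adjusted p = 0.000942) and Adm, adrenomedullin, higher (0.895 against 8.32 CPM, 3.26 ± 0.55, adjusted p = 0.000219). Epas1, which encodes HIF-2 alpha and is high in endothelium and epithelium, was at 35.0 CPM in moMs, 114 in tnsIMs and 13.6 in matIMs of WT mice. The endothelial and epithelial marker sums given above were likewise highest in tnsIMs, and their part in the level of Epas1 was not tested. More of the called genes of this list were lower than higher in matIMs against moMs, in both genotypes. The median log2 fold change of the list was -0.20 in WT and -0.44 in Ezr-KOm, beside 0.01 for all genes.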

How the data were processed

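Lung macrophages had been sorted by flow cytometry, and cDNA was made with SMART-Seq v4 and Nextera XT. The authors aligned the reads with STAR 2.7.9a to GRCm39 with Gencode M29 and deposited raw counts per gene, unnormalized. Which strand column was taken is not given in the sources used here, so that overlapping genes on opposite strands are uncertain. Here edgeR 4.0.16 (R 4.3.3) fitted quasi-likelihood models to the deposited counts of all 18 libraries in 6 groups, with TMM factors (0.931 to 1.07), after filterByExpr with a smallest count of 10, which left 15811 of 21254 genes. Adjusted p values are Benjamini-Hochberg over all of these. DESeq2 1.42.0 and other settings were alternatives. The script was tested on simulated data. The 10 genes, the lists and the markers were chosen with earlier results of these data known. All 10 genes are named, and from each further list up to 6 genes called per comparison. Families of isoforms other than hexokinase were put together after values were seen.

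The study names 3 mice per genotype, and replicates are their libraries. Between genotypes of one population, deviations of libraries with the same replicate number correlated at 0.102 to 0.316 (9 pairs) against at most 0.0508 for different numbers, so the numbers were taken as pairs in an alternative fit. Between populations of one genotype the correlations were 0.0905 to 0.397 (18 pairs) for the same number and at most 0.0316 for different ones. That a number marks 1 mouse is not stated in the sources used here, and a replicate block within genotype was an alternative fit. No pair of libraries of the same group agreed within sampling noise. Copies of each gene were sought with BLAST 2.17.0 among reference transcripts (at least 90% identity over at least 80% of the copy, E value up to 1e-20). Lengths were taken from the GRCm39 annotation of a later Gencode release. Promoter letters are from RefSeq. Totals of 16512783 to 48460995 counts limit the precision of low genes. Groups of 3 are too small for the exact permutation test to pass the threshold, so none was run.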

Additional observations from a re-analysis of the deposited data

How the results depend on the processing

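Each comparison was recomputed with DESeq2, with library totals only, without a filter, with the population or genotype fitted alone, with a replicate block and without each library in turn. No call of the 10 genes between genotypes (30 results) or in the differences of the Ezr-KOm effect (30 results) changed in any alternative, with lowest adjusted p values of 0.653 and 0.9998, but the sign of 20 and 19 of them changed in some. The paired fit with a replicate block changed no genotype call of these genes. DESeq2 called 55, 55 and 52 of all genes between genotypes in moMs, tnsIMs and matIMs, where edgeR called 27, 26 and 24. Of 60 results between populations 15 were called, and 44 never changed, 7 were lost and 9 gained in at least 1 alternative. With the replicate block within genotype 1 gene was called between tnsIMs and moMs in WT (Hk3, adjusted p = 0.0312) and 2 in Ezr-KOm (Hk1 and Hk3, 0.0116 and 0.0266), and Hk1 and Pfkl were also called between matIMs and tnsIMs in Ezr-KOm (0.0345 and 0.0150), with no other call of the 10 genes changed. Of all genes it called 3403 between Ezr-KOm tnsIMs and moMs, against 2257 without it. With library totals only, 1 was called there in Ezr-KOm (Pfkp, 0.0486), and the median of all genes for matIMs against moMs was 0.111 in WT and 0.132 in Ezr-KOm. The cause of these changes was not tested. Leaving out 1 library gave 2 to 4 calls for WT matIMs against tnsIMs, 3 to 5 for Ezr-KOm matIMs against moMs and 2 to 6 for Ezr-KOm matIMs against tnsIMs, with 2 without replicate 2 of the WT matIMs or of the Ezr-KOm matIMs in the first and last. With the length of the longest transcript the Hk3 share was 53.8% in WT moMs, 51.7% in Ezr-KOm moMs and 30.05% in Ezr-KOm matIMs.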
